A study of Rattus norvegicus with 6 samples.

Results

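The EGF family and its receptors were read on 6 Affymetrix rat arrays of NRK-52E cells, an established line of normal rat kidney tubule epithelium. The family was taken as 10 genes: the ligand genes Areg, Ereg, Hbegf, Tgfa and Btc, the receptor genes Egfr, Erbb2 and Erbb3, the receptor inhibitor gene Errfi1 and the sheddase gene Adam17. Members were all probe sets whose only platform gene symbol is 1 of these names. All 10 genes were measured, by 13 of the 31042 probe sets that are not array controls, and they are 10 of 14217 genes in all. Every member had a value on each array, and no filter on low values was applied. Cells of 3 arrays (control lentivirus) and 3 arrays (AMPKα2 short hairpin RNA lentivirus) had all been stimulated with recombinant TGF-β1 at 10 ng/mL for 24 h. By the labels the groups differ only in the lentivirus, and cells without TGF-β1 were not analysed here. The hairpin is directed at AMPKα2, 1 of the catalytic chains of AMP-activated protein kinase, which senses low cellular energy. The labels number the arrays of each group as biological replicates, and say nothing of separate clones or hairpins.

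EGF family ligands are made as membrane-anchored precursors, and metalloproteases such as ADAM17 cut them free at the cell surface. The freed ligand binds EGFR or another ERBB receptor, the receptors pair, and their kinase domains start the RAS-ERK and PI3K-AKT cascades. ERBB2 has no known soluble ligand and acts as the partner in pairs, while ERBB3 has a weak kinase and works through its partner. In the kidney tubule the pathway is known for its part in growth and in repair after injury.

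Values are log2 expression as deposited, so a difference of 1 is a 2-fold difference, and levels of different genes are not compared with each other. Differences are AMPKα2 hairpin minus control, tested with limma over all 14217 genes. A gene passed where its Benjamini-Hochberg adjusted p was under 0.05. The groups differed broadly: 85.1% of all genes passed, 43.6% higher and 41.5% lower, and 87.1% had groups that did not overlap. The SD over probe sets was 1.76 to 1.82 on the hairpin arrays and 2.17 to 2.19 on the control arrays. Direction therefore went with level: the median change was 0.81 for genes at control levels of 5 to 6, but -0.90 at 9 to 10. The change of each of the 10 members is for this reason also given under 3 rescalings: quantile normalization gives the arrays 1 distribution, cyclic loess removes trends with level, and median centring shifts whole arrays. It is set beside the 500 genes nearest in control level. The targeted gene Prkaa2 had a change of -0.21 (SE 0.09) that did not pass (limma, adjusted p = 0.0552), and group names here follow the labels. Its change was -0.05 under quantile normalization and -0.15 under cyclic loess, neither of which passed. Under median centring it was -0.42 and passed as lower. Precision is limited by the small number of arrays.

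Tgfa, which encodes the ligand TGF-α, had the largest change of the family, a fall of 7.73-fold with the AMPKα2 hairpin in the deposited values. Erbb2 fell by 3.09-fold, and Adam17, the sheddase gene, by 2.07-fold. Erbb3 rose by 1.72-fold and Btc, which encodes the ligand betacellulin, by 1.57-fold. These 5 genes kept direction and call in all 4 scalings, although the fall of Adam17 shrank to -0.30 on the log2 scale after quantile normalization. The other 5 genes, Areg, Ereg, Hbegf, Egfr and Errfi1, had changes whose direction or call depended on the scaling. As deposited, 2 of 10 members were higher, 7 were lower and 1 did not pass, where 43.6% of all genes were higher and 41.5% lower. After quantile normalization 5 were higher and 3 lower, where 43.8% and 28.9% of all genes were, and cyclic loess gave the same counts, against 40.2% and 31.5%. After median centring 2 were higher and 7 lower, against 35% and 48.2%. In all 4 scalings together 2 members were higher and 3 lower, where 25.5% and 26.4% of all genes were. Groups did not overlap in 9 of 10 members, a share near that of all genes.

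**Figure D1:**
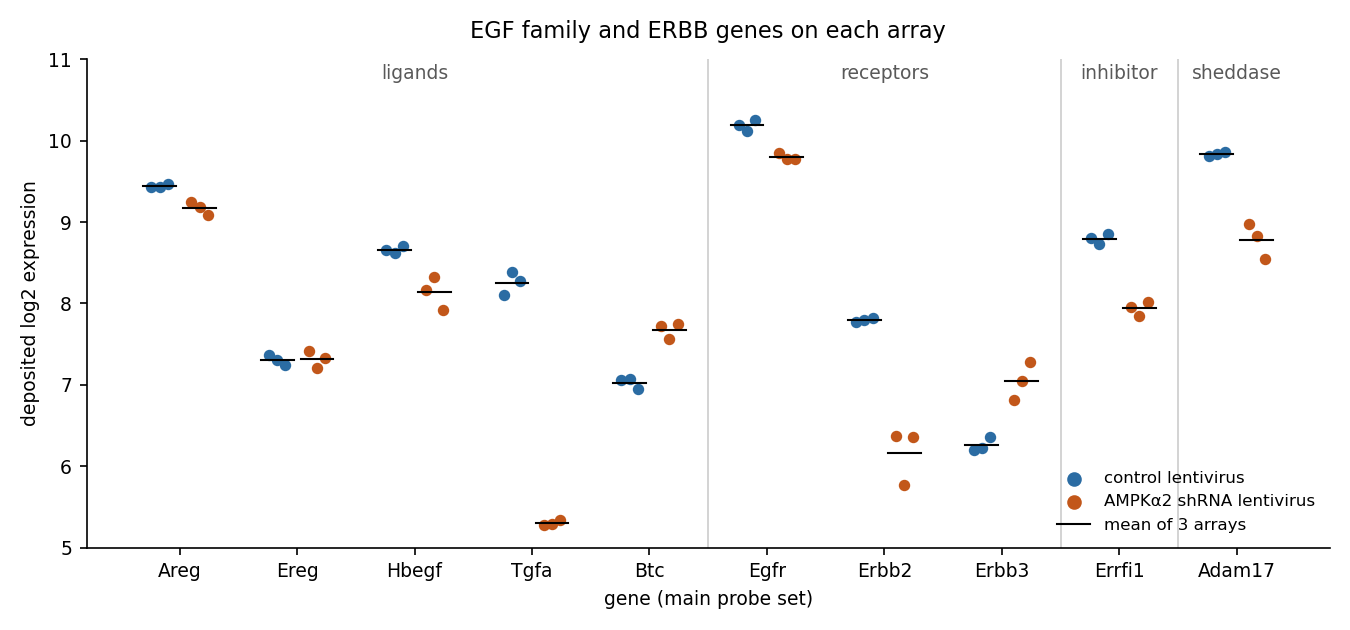
Deposited log2 expression of the main probe set of each gene on every array, with blue points for the 3 control arrays, orange points for the 3 AMPKα2 shRNA arrays and a bar at each mean. Tgfa shows the widest gap between groups, Btc and Erbb3 are the genes whose hairpin arrays lie above the control arrays, and the groups of Ereg overlap.

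The DNA just upstream of 4 members is shown, since these have the widest range of behaviour: Tgfa and Erbb2 fell, Btc rose, and Areg turned with the scaling. Each line gives the 250 bases before the annotated start of the gene, 5′ to 3′ on the gene's own strand, from RefSeq on build GRCr8. Capitals mark matches to 6 short motifs searched on both strands. These were the SP1 box GGGCGG, the TATA box TATAAA, the cAMP response element TGACGTCA, the AP-1 site TGANTCA, the SMAD box CAGAC and the TEAD site GGAATG.
Tgfa: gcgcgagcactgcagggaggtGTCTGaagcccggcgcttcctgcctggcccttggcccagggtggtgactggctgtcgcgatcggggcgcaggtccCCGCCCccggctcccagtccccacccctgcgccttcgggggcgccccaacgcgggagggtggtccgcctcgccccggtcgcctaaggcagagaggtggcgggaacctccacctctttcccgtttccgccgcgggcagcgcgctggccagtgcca
Erbb2: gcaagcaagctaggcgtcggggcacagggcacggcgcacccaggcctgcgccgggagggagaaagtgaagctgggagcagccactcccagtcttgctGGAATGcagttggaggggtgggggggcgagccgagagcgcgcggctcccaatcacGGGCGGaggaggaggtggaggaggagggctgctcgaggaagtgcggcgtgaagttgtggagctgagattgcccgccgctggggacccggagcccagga
Btc: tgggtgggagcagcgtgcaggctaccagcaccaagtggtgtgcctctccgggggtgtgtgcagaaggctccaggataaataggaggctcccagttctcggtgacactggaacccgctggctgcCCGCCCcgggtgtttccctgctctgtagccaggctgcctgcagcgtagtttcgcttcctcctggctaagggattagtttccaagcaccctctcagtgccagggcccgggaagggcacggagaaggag
Areg: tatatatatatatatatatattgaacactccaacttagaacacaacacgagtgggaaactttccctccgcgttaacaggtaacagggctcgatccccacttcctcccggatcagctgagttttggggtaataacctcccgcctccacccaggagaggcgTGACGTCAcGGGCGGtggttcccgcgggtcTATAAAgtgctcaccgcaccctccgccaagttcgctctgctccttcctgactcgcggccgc
The windows are chr4:120175469-120175718 (+) for Tgfa, chr10:83907351-83907600 (+) for Erbb2, chr14:16992418-16992667 (+) for Btc and chr14:17265642-17265891 (-) for Areg. The Tgfa window is 74.4% G and C, that of Erbb2 69.2%, that of Btc 62.8% and that of Areg 54.4%, where the median of 33469 RefSeq windows is 51.2%. An SP1 box, a GC-rich element, lies in each of the 4 windows and in 30.5% of all windows, 154 bases before the start in Tgfa and 98 in Erbb2. All 4 windows are richer in G and C than the median window. The share among windows of like G and C content was not analysed. Only the Areg window of these 4 holds a TATA box (12.9% of all windows) and a cAMP response element (1.59%), at 61 and 91 bases before the start. The response element and the SP1 box of Areg are separated by a single base. The Tgfa window holds 1 SMAD box, a motif in 42.9% of all windows, and the Erbb2 window 1 TEAD site, found in 12.1%. No AP-1 site, present in 6.34% of all windows, is in any of the 4. Of the 10 members, 8 had a window in the table, and Errfi1 was the other member with a TATA box. A match describes letters only, and does not show that a factor binds there.

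Tgfa stood at 8.11, 8.38 and 8.28 on the control arrays, and at 5.27, 5.30 and 5.35 on the AMPKα2 hairpin arrays. The hairpin arrays lay close together, and far below every control array. The change was -2.95 (SE 0.09, limma, adjusted p = 2.11e-09). The other probe set of Tgfa read 8.77, 9.05 and 8.62 on the control arrays and 4.79, 4.68 and 4.50 on the hairpin arrays. Its change of -4.16 (SE 0.12) was larger still, so both probe sets of the gene fell. Rescaling did little: the main probe set had -2.86 under quantile normalization, -2.87 under cyclic loess and -3.17 under median centring. Genes of the same control level had a median change of -0.66, with 90% of them between -1.96 and 0.48. Tgfa lay below that range, at percentile 0.4 of its 500 neighbours. It moved from percentile 78.6 to 81.6 of all probe sets on the control arrays to percentile 33.1 to 34.3 on the hairpin arrays. Since whole cultures were measured, fewer cells that express a gene and less RNA per cell cannot be told apart, here and for every gene below.

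Btc was the ligand gene that rose. It stood at 7.06, 7.07 and 6.95 on the control arrays and at 7.73, 7.56 and 7.74 on the hairpin arrays. Every hairpin array was above every control array, with a change of 0.65 (SE 0.09, limma, adjusted p = 3.79e-05). Genes of its control level had a median change of -0.20, and Btc was at percentile 85.2 of them. Its rise was 1.10 under quantile normalization, 1.03 under cyclic loess and 0.43 under median centring.

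Areg encodes amphiregulin and Hbegf the heparin-binding ligand HB-EGF, both shed by ADAM17. Areg stood at 9.43, 9.44 and 9.47 on the control arrays and at 9.25, 9.19 and 9.09 on the hairpin arrays. The groups did not overlap, but the gap was small: the change was -0.27 (SE 0.08, limma, adjusted p = 0.00969). After quantile normalization it was 0.49 and after cyclic loess 0.45, which passed in the opposite direction. Genes at the control level of Areg had a median of -0.92, and Areg lay above most of them, at percentile 82. Hbegf stood at 8.66, 8.62 and 8.70 on the control arrays and at 8.17, 8.33 and 7.92 on the hairpin arrays. Its change of -0.52 (SE 0.11, limma, adjusted p = 0.000847) turned to 0.19 under quantile normalization and 0.16 under cyclic loess, and neither value passed. Hbegf was at percentile 67.4 of genes of its level, whose median change was -0.82. Both ligand genes were thus lower as deposited, and less so than the typical gene of their level.

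Ereg, which encodes epiregulin, had overlapping groups. It stood at 7.36, 7.31 and 7.24 on the control arrays and at 7.42, 7.21 and 7.33 on the hairpin arrays, with a change of 0.02 (SE 0.09, limma, adjusted p = 0.869). It passed as higher after quantile normalization (0.45) and cyclic loess (0.38), and had -0.20 after median centring, which did not pass. Btc, Areg, Ereg and Epgn, the epigen gene, follow each other in that order on chromosome 14, with no other annotated gene between them in RefSeq. The 3 measured neighbours did not share a call: as deposited Btc passed as higher, Areg as lower, and Ereg did not pass. Epgn was not analysed here.

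**Figure D2:**
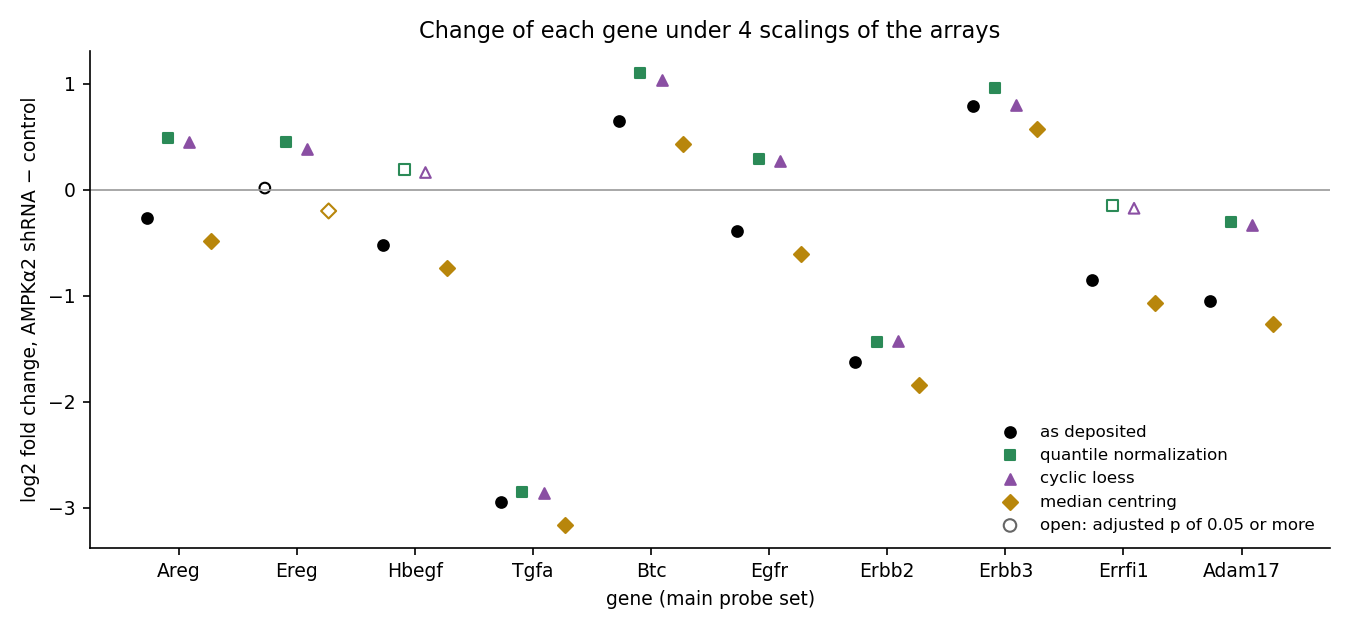
Log2 fold change of each gene (AMPKα2 shRNA minus control, main probe set) as deposited and after 3 rescalings, with filled symbols for an adjusted p under 0.05 and open symbols otherwise. Tgfa and Erbb2 stay well below 0 and Btc and Erbb3 above it, while Areg, Hbegf and Egfr cross 0 after quantile normalization and cyclic loess.

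Egfr, the receptor gene for all 5 ligands here, was read by 3 probe sets. The main one stood at 10.19, 10.12 and 10.26 on the control arrays and at 9.84, 9.77 and 9.77 on the hairpin arrays. Its groups did not overlap, and its change was -0.39 (SE 0.08, limma, adjusted p = 0.000934). Another probe set agreed in direction, at -0.50 from a control mean of 9.12. The remaining one went the other way, rising by 0.90 (SE 0.12) from a control mean of 5.14, a level at which most genes rose. The mean of the 3 probe sets changed by 0.0024, which did not pass. After quantile normalization the main probe set had 0.29 and after cyclic loess 0.27, both of which passed as higher. Genes at its control level had a median of -0.85, and Egfr was at percentile 71 of them. A direction for Egfr was thus not settled by these arrays.

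Erbb2 stood at 7.77, 7.79 and 7.83 on the control arrays, and at 6.37, 5.77 and 6.36 on the hairpin arrays. Hairpin replicate 2 was the lowest, but all 3 hairpin arrays were far below the controls. The change was -1.63 (SE 0.14, limma, adjusted p = 1.6e-06), and -1.43 without hairpin replicate 2. It was -1.44 under quantile normalization, -1.43 under cyclic loess and -1.85 under median centring. Genes of its level had a median change of -0.52. Erbb2 was at percentile 9 of them, inside the range that holds 90% of its neighbours.

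Erbb3 moved in the direction opposite to its partner Erbb2. It stood at 6.21, 6.23 and 6.36 on the control arrays and at 6.81, 7.05 and 7.29 on the hairpin arrays, so the groups did not overlap. The change was 0.79 (SE 0.12, limma, adjusted p = 8.38e-05). It was 0.96 under quantile normalization, 0.80 under cyclic loess and 0.57 under median centring. Genes of its control level rose too, with a median of 0.39, and Erbb3 was at percentile 68 of them.

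Errfi1 encodes MIG6, which binds the kinase domain of EGFR and ERBB2 and holds it inactive, and is itself induced by EGF. It stood at 8.80, 8.73 and 8.85 on the control arrays and at 7.96, 7.85 and 8.01 on the hairpin arrays. The groups did not overlap, and the change was -0.85 (SE 0.08, limma, adjusted p = 3.42e-06). It was -0.15 under quantile normalization and -0.17 under cyclic loess, and neither value passed. The median of genes of its level was -0.89, and Errfi1 lay in their middle, at percentile 51.8.

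Adam17 stood at 9.81, 9.83 and 9.85 on the control arrays and at 8.97, 8.83 and 8.55 on the hairpin arrays. The control arrays were nearly equal and the hairpin arrays spread more widely, without overlap. The change was -1.05 (SE 0.11, limma, adjusted p = 4.71e-06). After quantile normalization -0.30 remained and after cyclic loess -0.33, both of which passed. Genes of its level had a median of -0.88, and Adam17 was at percentile 42 of them.

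**Figure D3:**
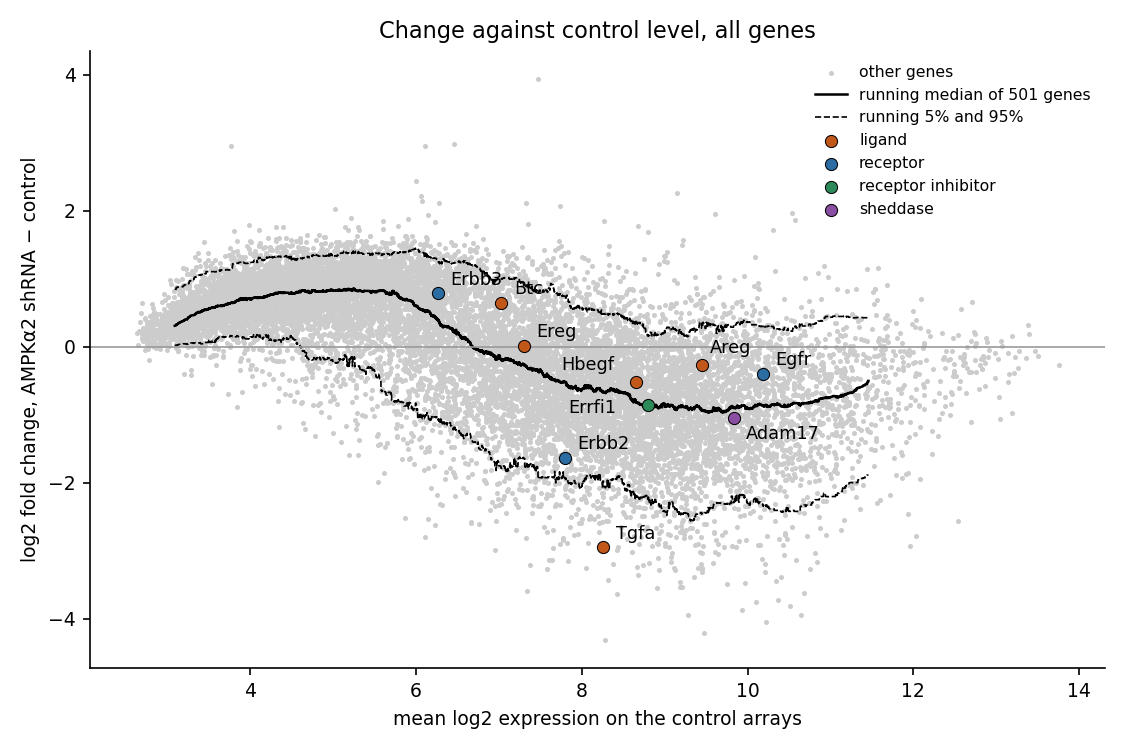
Log2 fold change (AMPKα2 shRNA minus control) against the mean log2 expression on the control arrays for all 14217 genes, with a running median and running 5% and 95% limits, and the 10 members coloured by role. Tgfa lies below the lower limit, Erbb2 just above it, and the other 8 members lie between the limits.

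Read against genes of like control level, the family thus had 1 member outside the central 90%, Tgfa, and 0 above its upper limit. By construction this range leaves out 10% of the neighbours, so 1 of 10 members is near the share of all genes. The median percentile of the 10 members was 66. The place of each gene on its own array can be read without any rescaling. Quantile normalization rests on the same ranks, so they are no separate support for its result. Erbb2 was at percentile 74.9 to 75.3 on the control arrays and 44.3 to 57.2 on the hairpin arrays. Btc went from 64.6 to 66.2 up to 78.9 to 82.6, and Erbb3 from 55.6 to 57.4 up to 66.1 to 75.6. Areg was at 91.3 to 91.5 on the control arrays and 94.1 to 94.4 on the hairpin arrays, above them without overlap although its deposited values were lower. Hbegf was at 84.1 to 84.8 on the control arrays and 84.9 to 88.2 on the hairpin arrays. Egfr was at 95.2 to 95.8 on the control arrays and 96.3 to 96.8 on the hairpin arrays. Adam17 was lower on the hairpin arrays, at 91.1 to 92.9 against 93.7 to 93.9. Errfi1, at 85.4 to 86.3 on the control arrays and 82.8 to 86 on the hairpin arrays, overlapped between groups.

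**Figure D4:**
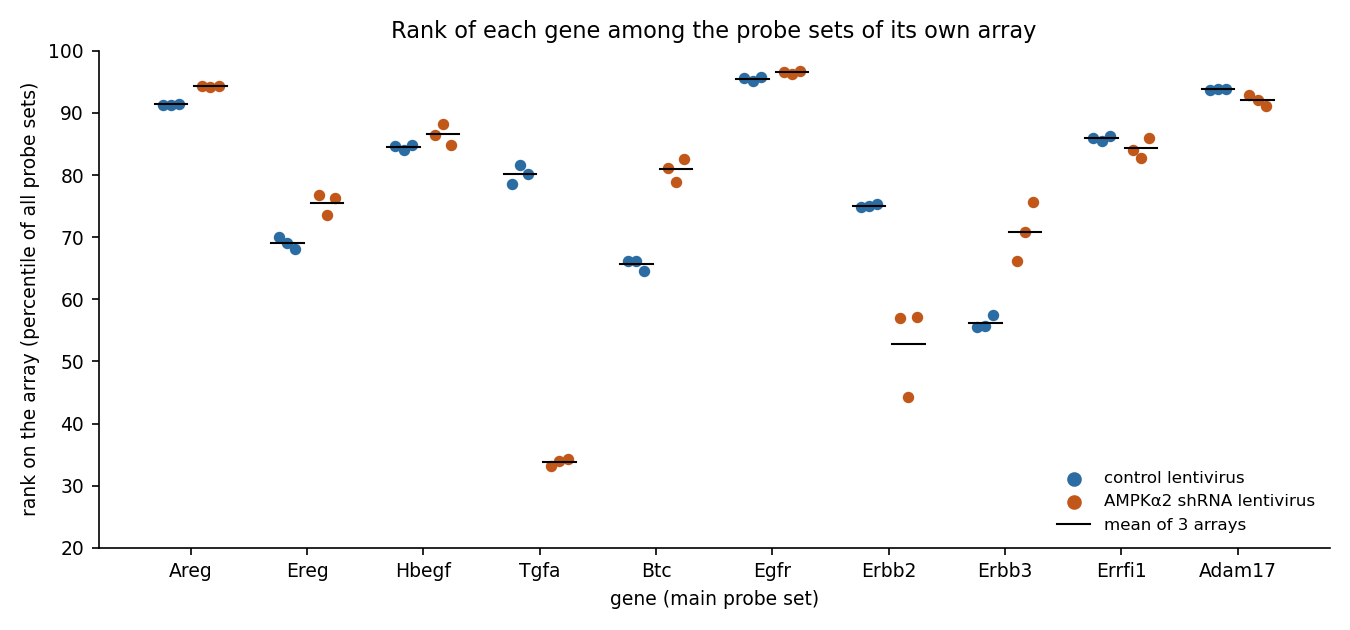
Rank of each gene's main probe set among the 31042 probe sets of the same array, as a percentile, with blue points for control arrays, orange points for AMPKα2 shRNA arrays and a bar at each mean. Tgfa drops from percentile 80.2 (median of the control arrays) to percentile 34, Erbb2 also drops, and Btc, Erbb3 and Ereg stand higher on the hairpin arrays. By smaller steps Areg, Egfr and Hbegf also stand higher there, and Adam17 lower.

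The remaining ligands and the last receptor were read at low levels or changed little. Of 7 such genes 5 were measured, of which 3 were higher, 0 lower and 2 did not pass as deposited. Over all genes, 43.6% were higher and 41.5% lower. Erbb4, which encodes a neuregulin receptor with an active kinase, rose by 0.79 (SE 0.13) from 3.48 ± 0.08 (SD, n = 3) to 4.28 ± 0.29, and by 0.39 after quantile normalization. Genes of its control level had a median change of 0.56, and Erbb4 was at percentile 77.2 of them. The neuregulin gene Nrg1 had 0.11 at a control level of 6.88, which did not pass, and passed as higher after quantile normalization (0.39) and cyclic loess (0.28). Nrg2 and Nrg4, at control levels of 4.62 and 4.11, had 0.65 and 0.42, and under quantile normalization or cyclic loess neither passed. Genes of those control levels had median changes of 0.82 and 0.72, with Nrg2 at percentile 35.8 and Nrg4 at 16.2. Egf, the founding ligand gene, stood at 3.31 on the control arrays, and its change of -0.14 did not pass. Genes of that control level had a median change of 0.47, and Egf was at percentile 0.8 of them. Egf passed as lower after quantile normalization (-0.40), cyclic loess (-0.41) and median centring (-0.35).

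Of 9 measured genes of ligand shedding, 2 were higher and 4 lower, and 3 did not pass, where 43.6% of all genes were higher and 41.5% lower. The median was -0.19, where the median of all genes was 0.05. Timp3, which encodes an inhibitor of ADAM17, rose by 1.48 (SE 0.08), from 5.86 ± 0.06 (SD, n = 3) to 7.34 ± 0.04, and its 3 other probe sets rose by 0.64 to 1.48. Timp3 was at percentile 97.4 of genes of its level. Rhbdf1, which encodes iRhom1, a trafficking partner of ADAM17, fell by 1.14 (SE 0.09), and by 0.40 after quantile normalization. The metalloprotease gene Adam8 fell by 2.26 (SE 0.10). A dimmer probe set of Adam8, at a control level of 4.82, went up by 1.03. Adam15 fell by 1.28 (SE 0.08), and by 0.65 after quantile normalization, and Adam19 rose by 0.92 (SE 0.12). Dimmer probe sets of Adam19, at control levels under 4, had 0.76, 0.32 and 0.17, the last of which did not pass. In all 4 scalings 2 of the 9 genes were higher and 3 lower, shares near the 25.5% and 26.4% of all genes.

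Most measured adaptors and kinases of the RAS-ERK cascade were lower. Of 13 measured out of 19 listed, 12 were lower and 1 higher, with a median of -1.14. Over all genes, 41.5% were lower and 43.6% higher as deposited. After quantile normalization 9 of the 13 were lower and 3 higher, where 28.9% and 43.8% of all genes were. In all 4 scalings 8 were lower, where 26.4% of all genes were. The median of the 13 was -0.62 after quantile normalization, where that of all genes was 0.16. The control levels of these genes ran from 6.22 to 11.07, a range in which falls were common, and their median place among genes of like level was percentile 27.8. None of the 13 was under percentile 5. Nras, a RAS gene, fell by 2.44 (SE 0.09), but its other probe set had 0.26, which did not pass. Rasa1, a RAS inhibitor gene, fell by 2.05 (SE 0.11) and its other probe set fell by 1.44. Shc1, an adaptor that docks on activated ERBB receptors, fell by 1.74 (SE 0.08), and by 1.10 after quantile normalization. Nf1, another RAS inhibitor gene, was the member that rose, by 0.57 (SE 0.10).

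In the PI3K-AKT, PLC and STAT branch, 2 of 12 measured genes were higher, 8 lower and 2 did not pass. Over all genes, 43.6% were higher and 41.5% lower as deposited. After quantile normalization 4 of the 12 were higher and 2 lower, where 43.8% and 28.9% of all genes were. The median of the 12 went from -0.51 to -0.02. In all 4 scalings 2 were higher and 2 lower, where 25.5% and 26.4% of all genes were. Akt1, which encodes a central kinase of the branch, fell by 2.51 (SE 0.08), and its other probe sets had -2.79 and 0.69, the last from a control level of 5.87. Pdpk1, which encodes the kinase PDK1 that activates AKT, fell by 1.21 (SE 0.09), and by 0.46 after quantile normalization. Pik3r2, a regulatory subunit gene of PI3K, rose by 0.88 (SE 0.10), and by 1.56 after quantile normalization, while its other probe set had -0.15, which did not pass. Stat5a, a transcription factor gene, rose by 0.62 (SE 0.08), and by 1.19 after quantile normalization.

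Of 17 measured genes of receptor endocytosis and turnover, 4 were higher, 10 lower, and 3 did not pass. The median was -0.32. Over all genes, 43.6% were higher and 41.5% lower as deposited. After quantile normalization the median of the 17 was 0.07. At that scaling 8 were higher and 6 lower, where 43.8% and 28.9% of all genes were. Cyclic loess gave 8 and 7, where 40.2% and 31.5% of all genes were, and a list median of -0.02. In all 4 scalings 2 were higher and 6 lower, where 25.5% and 26.4% of all genes were. Lrig1, which encodes a membrane protein that promotes ERBB receptor degradation, fell by 1.85 (SE 0.08). Cbl, the ubiquitin ligase gene for activated EGFR, fell by 1.04 (SE 0.09), and by 0.39 after quantile normalization, with -1.21, -1.04 and -0.26 for its other probe sets, the last of which did not pass. Tsg101, a sorting gene of the endosome, was lower in all 4 scalings, and fell by 0.25 after quantile normalization. Rab5a, a GTPase gene of the early endosome, rose by 1.09 (SE 0.08), and by 1.77 after quantile normalization, and its other probe set rose by 1.49. Rab5a was at percentile 99.2 of genes of its level. Epn1, an endocytic adaptor gene, rose by 0.59 (SE 0.10), and by 0.95 after quantile normalization. Ptpn1, which encodes a phosphatase that acts on EGFR, had 0.37 with its main probe set and -1.07 with the other, so its direction was not settled.

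Of 29 measured transcripts that EGF is known to induce, 10 were higher, 16 lower, and 3 did not pass. Over all genes, 43.6% were higher and 41.5% lower as deposited. The median of the 29 was -0.39 as deposited and 0.18 after quantile normalization. At that scaling 12 were higher and 9 lower, where 43.8% and 28.9% of all genes were. In all 4 scalings 7 were higher and 9 lower, shares near the 25.5% and 26.4% of all genes. Ccnd1, the cyclin D1 gene, fell by 2.79 (SE 0.08), from 12.03 ± 0.02 (SD, n = 3) to 9.24 ± 0.10, and its other probe sets had changes of -2.16 and -1.94. Ccnd1 lay at percentile 0.2 of genes of its level. The ETS factor genes Etv4 and Etv5, targets of ERK signalling, had changes of -2.19 (SE 0.15) and -1.76 (SE 0.14). A second Etv4 probe set fell by 0.98, and a second Etv5 probe set rose by 0.57 from a control level of 5.55. Lif, a cytokine gene, rose by 1.02 (SE 0.10), Egr3, an early growth response gene, by 0.92 (SE 0.14) and Dusp4, an ERK phosphatase gene, by 0.81 (SE 0.09). After cyclic loess these 3 rises were 0.41, 0.68 and 0.31. Genes of their control levels (4.53, 5.78 and 5.24) rose too, with median changes of 0.79, 0.75 and 0.84. Among such genes Lif was at percentile 74.8, Egr3 at 61.2 and Dusp4 at 47.2.

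**Figure D5:**
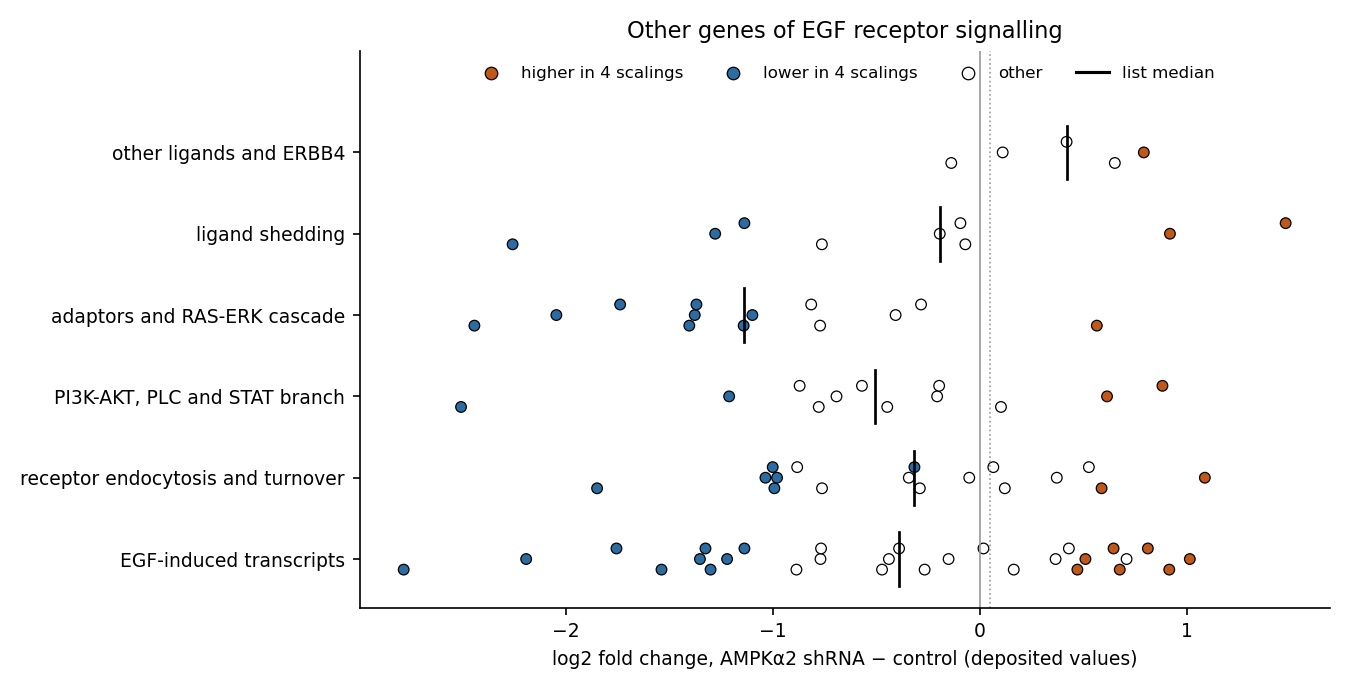
Log2 fold change (AMPKα2 shRNA minus control, deposited values) of the measured genes of 6 lists of EGF receptor signalling, 1 point per gene, with a bar at each list's median and a dotted line at the median of all genes. Orange genes were higher and blue genes lower in all 4 scalings; the RAS-ERK list has 8 blue genes and 1 orange, while the EGF-induced list has 9 and 7.

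Markers of cell types were mostly higher as deposited, which was also so of all genes at low control levels: 89.9% of genes at 4 to 5 and 80.8% at 5 to 6 were higher. Of 8 measured tubule epithelial markers, 6 were higher and 1 lower as deposited. After quantile normalization 2 of the 8 were higher and 1 lower, where 43.8% and 28.9% of all genes were. Of the 8, Krt8 was at 12.49, Cdh1 at 4.31 and Epcam at 2.97 on the control arrays, levels that are not compared between genes. All 6 fibroblast markers were higher, and 5 of them after cyclic loess, where 40.2% of all genes were higher. Their list mean was 6.02 to 6.16 on the hairpin arrays and 4.87 to 4.88 on the control arrays. Of 8 proximal tubule markers 7 were higher (6.43 to 6.52 against 5.64 to 5.72), and of 5 distal nephron markers 4 (4.98 to 5.14 against 4.22 to 4.32). Of 6 leukocyte markers 5 were higher and 1 lower (6.09 to 6.20 against 5.63 to 5.73). Of 4 endothelial markers 3 were higher (4.81 to 4.99 against 4.14 to 4.39), and 1 after cyclic loess, against 40.2% of all genes. Of 4 podocyte markers 2 were higher and 1 lower (6.05 to 6.38 against 5.89 to 6.03). The median place of a list among genes of like control level ran from percentile 38 for podocytes to 72.9 for fibroblasts. Above percentile 95 were 1 fibroblast marker, Col1a1, and 1 proximal tubule marker, Aqp1. Col1a1 rose by 2.98 and was at percentile 100, and Aqp1 rose by 1.39 and was at percentile 96.2. In the other 5 marker lists 0 were above percentile 95. The array gives no 0, and the leukocyte marker Ptprc was at 4.14 and the endothelial marker Pecam1 at 2.96 on the control arrays. Cd14, the leukocyte marker that was lower, was at 10.78 on the control arrays and fell by 1.70 (SE 0.10). It was lower in all 4 scalings. The part of these markers in the changes of the EGF family was not tested.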

How the data were processed

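The authors deposited log2 expression values, 1 for each probe set and array. Background correction, summarisation and normalization are not given in the sources used here. Per the labels' protocols, RNA was extracted with Trizol and labelled with biotin. Of 31099 probe sets, 57 array controls were left out, 20826 had 1 platform gene symbol, 436 several and 9780 none. Each gene was represented by the probe set that had the largest 6-array mean, and other probe sets of named genes were fitted over all probe sets. RefSeq (GRCr8) changed 0 symbols.

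The test was limma 3.58.1 under R 4.3.3 (2-sided, eBayes after lmFit, no covariate), with Benjamini-Hochberg adjustment over 14217 genes. SE is limma's moderated standard error. An exact permutation of these 6 arrays allows no 2-sided p below 0.1 for a single value. Replicates may share culture steps, and p-values measure the spread between these arrays.

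Members and lists were chosen with earlier results of these data known. Named genes are all members, the other ligands and Erbb4, and from each other pathway list up to 3 rises and 3 falls, the largest that also passed after quantile normalization and cyclic loess (3 iterations). Markers of 7 cell types were checked. Alternatives also covered filters on dim genes, the mean of probe sets, eBayes priors, array weights, a floor of 4, the replicate number as a block and leaving out each array.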

Additional observations from a re-analysis of the deposited data

How the results depend on the processing

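Of 161 refits of single members, 146 kept direction and call. Quantile normalization and cyclic loess turned Areg (0.49 and 0.45), Egfr (0.29 and 0.27) and Hbegf (0.19 and 0.16, not passed), made Ereg pass (0.45 and 0.38), and left Errfi1 not passing (-0.15 and -0.17). The mean of probe sets gave Egfr 0.0024, and its low probe set 0.90. Members higher were 5 and lower 3 under both scalings, and 1 was higher and 6 lower without the lowest 50% of genes, where Erbb3 and Tgfa were not tested. Ereg, which did not pass as deposited, had -0.20 under median centring. Over all genes, 3317 were higher and 5757 lower without the lowest 25% of genes. Without the lowest 50%, 1188 were higher and 4835 lower, with 6023 passing. Lower calls thus prevailed over all genes at that setting, as they did among the members. These filters leave fewer genes and take out the dim ones, and 89.9% of genes at control levels of 4 to 5 were higher as deposited. Leaving out 1 array kept every member's call, with 2 members higher and 7 lower each time. Ereg was at -0.034 to 0.070 (not passed). Of all 14217 genes 11573 to 12024 then passed, with 5905 to 6248 higher and 5641 to 5910 lower. Same-numbered arrays did not deviate together (r of -0.02, 0.01 and -0.10). The labels do not say whether the numbers mark a shared batch, and these values cannot settle it. With the replicate block, 2 members were higher and 7 lower. Of all 14217 genes 12039 passed at that setting, with 6173 higher and 5866 lower. Signal over background was not given, so how far dim probe sets limit these values is unknown.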
